A study of Oryza sativa with 2 samples.

Results

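The gene models at the start of rice chromosomes 4 and 10 were described by their RNA in 2 libraries. Members were the identifiers beginning MH04g or MH10g that came in the first 30% of their chromosome when sorted by identifier. These were 1593 of 5310 identifiers on chromosome 4 and 1077 of 3590 on chromosome 10, or 2670 of the 57141 identifiers with a chromosome number and of 57343 in all. They were set against the last 30% of the same chromosomes, again 1593 and 1077 identifiers. The rule uses identifier order and no expression value. The last member on chromosome 4, MH04g0208800, had 1 and 0 counts in libraries 1 and 2, and the next identifier, MH04g0208900, had 1 and 3. On chromosome 10 the last member, MH10g0137400, had 0 and 1 counts, and the next identifier, MH10g0137500, also had 0 and 1.

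Both libraries were total RNA without ribosomal RNA from Minghui 63 plants, an indica restorer line that is a parent of the hybrid Shanyou 63. Before growth, seeds were germinated at 37 °C in water over 72 h. The plants were 2 weeks old, grew with 14 h days (32 °C) and 10 h nights (28 °C), and were collected at 8:00. The labels call the tissue seedling while the extraction was from leaves, and they do not say whether the libraries came from separate plants, so the spread between them may be technical. There is a single group, and no treatments were compared. No source used here paired identifiers with gene names (0 of 57343 matched the reference gene table), so the tissue was not checked against marker genes, and members are given by identifier without a role.

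Heterochromatin is the part of the genome that stays compact through the cell cycle. In plants it is rich in transposable elements and other repeats, carries dense DNA methylation, and holds few active genes among many annotated models that derive from transposons. In rice, stained chromosomes show much of chromosomes 4 and 10 as heterochromatin, mainly on the short-arm side, while the long arms are largely euchromatin. The files used here hold RNA values in identifier order and no chromatin measurement, distance or centromere position. They therefore show how much RNA was counted per model along that order, and not the state of the chromatin.

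The libraries held 18096722 and 18799901 gene counts, of which 47.4% and 47.0% belonged to the MH series of identifiers. A count of 0 allowed up to a CPM of 0.166 and 0.160 in libraries 1 and 2, CPM being counts scaled to the gene total of the library, taking 3 counts as the limit, which covers counting error only. FPKM is CPM per kb of model length, so gene counts outside the MH series also set where a floor in FPKM falls. An identifier was taken as expressed where its FPKM was at least 1 in each library and as undetected at 0 counts in both. Over all 57141 identifiers with a chromosome number, 23.3% were expressed and 36.2% were undetected. Fragments with more than 1 alignment were left uncounted by the authors' counting. Entries with more than 1 alignment made up 27.7% and 25.8% of the sum of gene counts and counting summary lines. These are entries of a summary line, which may not equal a share of fragments. Models in repeats can lose reads in this way. The part of such fragments in the results below was not tested, because the files do not say where they lay. In RNA from whole tissue, fewer cells that use a gene and less RNA per cell cannot be told apart.

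Few members reached an FPKM of 1. On chromosome 4, 129 of the 1593 members were expressed, a share of 8.10% (95% Wilson interval 6.86% to 9.54%). In the last 30% of that chromosome 555 were expressed, or 34.8% (32.5% to 37.2%). The difference was -26.7 percentage points (95% Newcombe interval -29.4 to -24.0). It was -27.4 points in library 1 alone and the same in library 2 alone, so the spread between libraries was far smaller than the difference. On chromosome 10, 113 of the 1077 members were expressed, a share of 10.5% (8.80% to 12.5%), against 368 or 34.2% (31.4% to 37.1%) in the last part. That difference was -23.7 points (-27.0 to -20.3), with -23.8 points in library 1 alone and -24.4 in library 2 alone. Neighbouring identifiers are not independent, so these intervals cover binomial counting only and are likely too narrow. With a single group no test over samples was possible.

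The libraries placed nearly the same members above the floor. On chromosome 4, 140 members reached an FPKM of 1 in library 1 and 130 in library 2, with 11 doing so in library 1 only and 1 in library 2 only. On chromosome 10 the numbers were 123 and 119, with 10 in library 1 only and 6 in library 2 only. Together, 242 of the 2670 members were expressed in both.

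The undetected share was higher in the first parts. On chromosome 4, 967 members were undetected, a share of 60.7% (58.3% to 63.1%), against 383 or 24.0% (22.0% to 26.2%) in the last part, a difference of 36.7 points (33.4 to 39.8). On chromosome 10, 539 members were undetected, a share of 50.0% (47.1% to 53.0%), against 266 or 24.7% (22.2% to 27.4%), a difference of 25.3 points (21.4 to 29.2). Between these states lay members with a few counts. Those with counts but fewer than 10 in sum, and not expressed, were 24.8% of the members of chromosome 4 and 26.0% of its last part. On chromosome 10 they were 32.1% and 26.2%. Members with 10 or more counts that were still not expressed were 6.40% on chromosome 4 and 7.34% on chromosome 10, against 15.1% and 14.9% in the last parts.

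For nearly all undetected members an FPKM of 1 lay above what a count of 0 allows at this depth. For undetected members of median length the limit was 0.192 and 0.185 FPKM on chromosome 4 in libraries 1 and 2, and 0.187 and 0.180 on chromosome 10. Only 6 and 4 of the 967 undetected members of chromosome 4, and 4 and 3 of the 539 of chromosome 10, were short enough for a count of 0 to allow an FPKM of 1 or more. These limits hold for fragments with a single alignment.

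The first parts of the 2 chromosomes differed mainly in the undetected share. Chromosome 4 had more undetected members than chromosome 10, by 10.7 points (6.82 to 14.5), and its expressed share differed by -2.39 points (-4.72 to -0.171). In the last parts these differences were -0.656 points (-4.01 to 2.63) for undetected and 0.671 points (-3.02 to 4.32) for expressed identifiers. Those intervals include 0. All of these intervals cover binomial counting only and are likely too narrow. The expressed shares of the first parts of chromosomes 4 and 10 lay closer with other part sizes. They were 9.51% and 10.2% with 20% parts, and 9.09% and 10.2% with 40% parts.

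**Figure D1:**
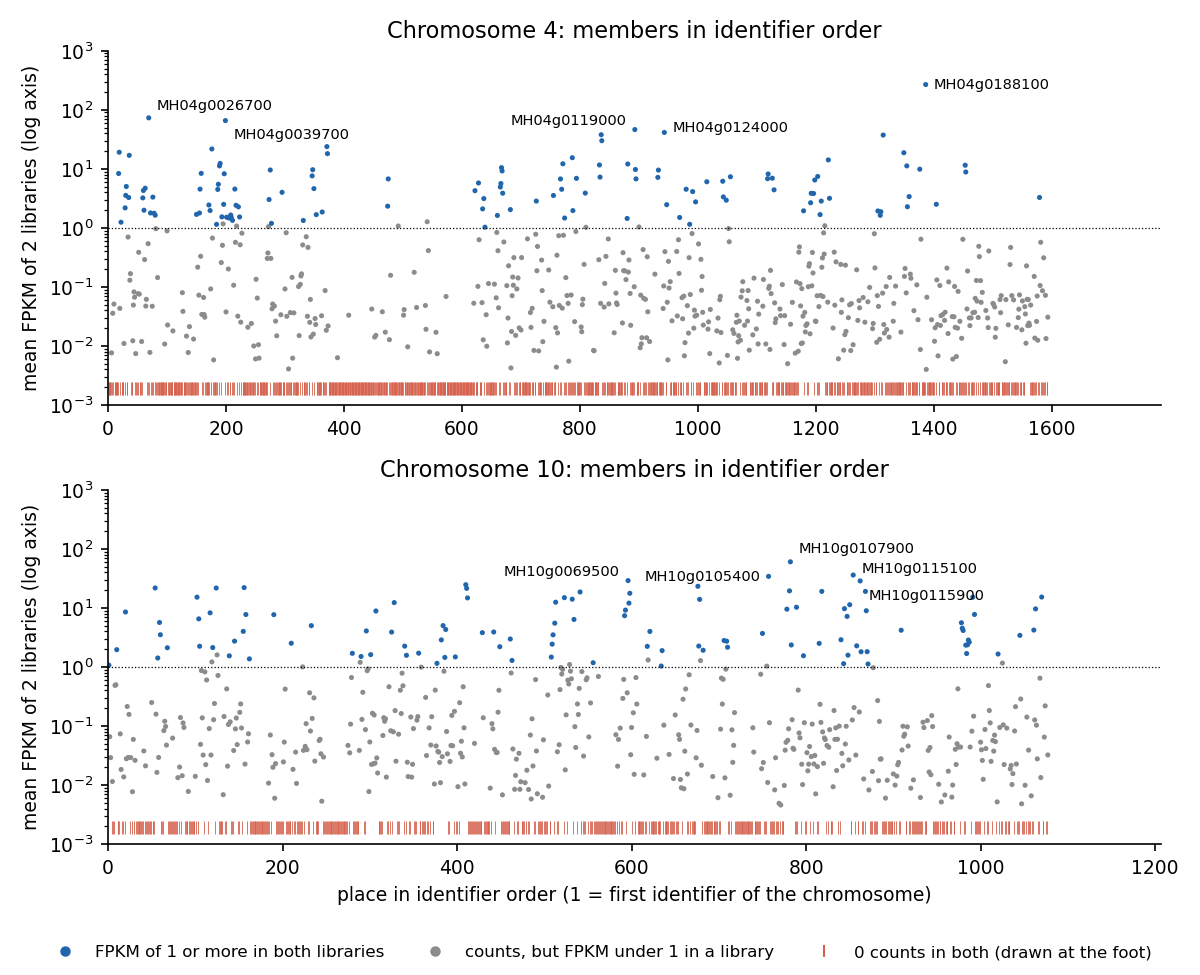
Mean FPKM of 2 libraries (log axis) for each member against its place in the identifier order of chromosome 4 (above) and 10 (below). Blue points are expressed members, grey points have counts but an FPKM under 1 in at least 1 library, orange strokes at the foot mark members with 0 counts in both, and the dotted line is an FPKM of 1. The 5 highest members of each chromosome are named, and a stretch of chromosome 4 from place 476 to 621 holds no expressed member.

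RNA from these regions was scarce also in sum. The 2670 members were 4.67% of the identifiers with a chromosome number and held 0.982% and 0.967% of the MH counts in libraries 1 and 2. Members of chromosome 4 had 44593 and 45234 counts, or 16.9 and 17.1 counts per kb of summed length. Its last part had 310882 and 318393 counts, or 97.2 and 99.6 per kb, which was 5.76-fold and 5.82-fold more per kb. Members of chromosome 10 had 39652 and 40178 counts, or 21.2 and 21.5 per kb, against 106.0 and 108.4 per kb in its last part, 4.99-fold and 5.04-fold more. The libraries differed from each other by far less than the parts did.

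Those counts came from few members. The 10 members with most counts held 45.5% ± 0.252 (SD, n = 2) of the counts of the first part of chromosome 4, and 50% of them lay in 13 members in each library. In the last part the top 10 held 29.5% and 29.6%, and 50% lay in 37 and 36 identifiers. On chromosome 10 the top 10 members held 38.9% ± 0.169 (SD, n = 2), and 50% of counts lay in 16 members in each library, against 34.4% and 34.3% for the top 10 of the last part, where 50% lay in 25 and 24 identifiers. The last parts held more expressed identifiers, 555 against 129 on chromosome 4 and 368 against 113 on chromosome 10. None of these values was scaled to that number, so they do not compare concentration among expressed identifiers.

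The median level of expressed members was below that of expressed identifiers in the last parts, a difference given without a test. On chromosome 4 the median FPKM of expressed members was 4.25 in library 1 and 4.16 in library 2, with quartiles of 2.18 and 8.84 in library 1, against medians of 4.79 and 4.76 in the last part. On chromosome 10 it was 3.90 and 3.76, with quartiles of 2.16 and 9.93 in library 1, against 5.16 and 5.07. In the first parts of the other 10 chromosomes this median ran from 4.24 to 6.06 in library 1 and from 4.05 to 5.85 in library 2. The median of chromosome 10 lay below that range in both libraries, and that of chromosome 4 lay at its lower end. Because the floor of 1 cuts all parts alike, these medians describe only identifiers above it. An FPKM of at least 10 in each library was reached by 24 members on chromosome 4 (18.6% of the expressed) and 27 on chromosome 10 (23.9%). In the last parts 140 and 93 identifiers reached it (25.2% and 25.3% of the expressed). A single member reached 100 in both libraries.

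That member was MH04g0188100, a model of 1137 bp at place 1386 of chromosome 4. It had 5327 counts in library 1 and 5907 in library 2, an FPKM of 259 and 276, with a mean of 268 ± 12.3 (SD, n = 2). By mean FPKM it ranked 118 among the 57141 identifiers with a chromosome number, and 1 identifier of the last part of its chromosome was higher. Of the 10 identifiers around it, 5 on either side, none was expressed and 8 were undetected, the highest of them having a mean FPKM of 0.0669. It took 11.9% and 13.1% of the counts of the first part of chromosome 4.

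The next members of chromosome 4 were lower. MH04g0026700, a model of 1948 bp at place 69, had 2667 and 2578 counts and an FPKM of 75.7 and 70.4, with 1 of its 10 neighbours expressed and 5 undetected. MH04g0039700, of 2636 bp at place 199, had 3088 and 3295 counts and an FPKM of 64.7 and 66.5, with 3 neighbours expressed and 3 undetected. Neither library was higher for both members. MH04g0119000, of 1074 bp at place 893, had 905 and 929 counts and an FPKM of 46.6 and 46.0, with 2 neighbours expressed and 7 undetected. MH04g0124000, of 3023 bp at place 943, had 2343 and 2259 counts and an FPKM of 42.8 and 39.7, with 1 neighbour expressed and 5 undetected. These 4 were spread over the region and did not adjoin each other. In the last part of chromosome 4, 40 identifiers had a mean FPKM at or above that of MH04g0124000, and the highest, MH04g0572500, reached 422 ± 27.7 (SD, n = 2).

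On chromosome 10 the highest member was MH10g0107900, a model of 1920 bp at place 782, with 2151 and 2122 counts and an FPKM of 61.9 and 58.8. Of its neighbours 3 were expressed and 1 was undetected. MH10g0115100, of 3098 bp at place 854, had 2056 and 2060 counts and an FPKM of 36.7 and 35.4, with 2 neighbours expressed and 4 undetected. MH10g0105400, of 2376 bp at place 757, had 1494 and 1503 counts and an FPKM of 34.7 and 33.6. Like the highest member of chromosome 4, it had no expressed neighbour among 10, and 7 were undetected. Its highest neighbour, below 1 in a library, still had a mean FPKM of 1.03. For MH04g0188100 that value was 0.0669. MH10g0069500, of 459 bp at place 596, had 250 and 241 counts and an FPKM of 30.1 and 27.9, with 4 neighbours expressed. MH10g0115900, of 690 bp at place 862, had 359 and 371 counts and an FPKM of 28.8 and 28.6, with 2 neighbours expressed. All 5 lay in the later stretch of the first part, between places 596 and 862 of 1077. This did not hold for the members ranked 6 to 10, with a mean FPKM from 24.7 to 21.7. They lay at places 410, 676, 156, 54 and 124. The last part of chromosome 10 held 37 identifiers at or above MH10g0115900, and its highest, MH10g0433500, a model of 195 bp, reached an FPKM of 3534 ± 275 (SD, n = 2).

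Expressed members were thinly spread, yet not evenly. On chromosome 4, 31 of 129 expressed members (24.0%) were followed by another expressed member, against 98 of 1463 that were not expressed (6.70%). On chromosome 10 the shares were 30 of 113 (26.5%) and 82 of 963 (8.51%). In the last parts they were 46.3% and 28.7% on chromosome 4 and 43.5% and 29.2% on chromosome 10. These are descriptions of neighbours on the same chromosome and carry no test. Neighbours, runs and stretches go by place in the identifier order. Identifier numbers are not evenly spaced, and identifiers on either side of a jump, as between places 42 and 43 of chromosome 4, were counted as adjoining. Among the 10 highest members of each chromosome a single pair adjoined, MH04g0113300 and MH04g0113400, with a mean FPKM of 37.8 ± 4.89 and 29.9 ± 0.680 (SD, n = 2). This pair was singled out after its values were seen.

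Some undetected members adjoined each other in long runs. The longest run of undetected members on chromosome 4 was 46 models from MH04g0077200 to MH04g0081700, with lengths from 186 to 8038 bp and a median of 645 bp. On chromosome 10 it was 27 models from MH10g0034700 to MH10g0037300, with lengths from 192 to 10348 bp and a median of 1395 bp. The longest such run in the last part was 7 models on either chromosome. Runs of 10 or more undetected neighbours held 248 members on chromosome 4 (15.6%) and 97 on chromosome 10 (9.01%), and none in the last parts. The longest stretch without an expressed member, a measure added after the plot of members was seen, was 146 models on chromosome 4, from MH04g0067400 to MH04g0081900. Of these 129 were undetected, and together they had 127 and 102 counts. Most of these counts came from models that reached an FPKM of 1 in library 1 but not in library 2. The highest mean FPKM among them was 1.27. The length of this stretch thus depends on the rule that both libraries reach the floor, and by library 1 alone it would be broken. On chromosome 10 the longest such stretch was 68 models, from MH10g0120700 to MH10g0127400, of which 37 were undetected. In the last parts the longest were 36 and 24 models.

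Along the order, the low share did not end at 30%. Each chromosome was divided into 20 bins of 5% of its identifiers, so that the first and the last part hold 6 bins each. On chromosome 4 the expressed share ran from 3.76% to 15.8% in the first 6 bins and from 28.7% to 39.8% in the last 6, and the ranges did not overlap. The first bin was the highest of the first 6. The next 4 bins, up to the middle of the order, were still between 5.64% and 14.3%. The following 4 were between 27.5% and 40.6%. On chromosome 10 the expressed share ran from 7.22% to 13.4% in the first 6 bins and from 22.9% to 41.7% in the last 6. Its next 4 bins were between 4.47% and 10.6%, and the 4 after them between 12.8% and 24.6%. The rise on chromosome 10 came later than on chromosome 4 and was uneven, with 24.6% in bin 13, 13.9% in bin 14 and 22.9% in bin 15. The middle 40% thus joined unlike stretches. Its expressed share was 21.6% on chromosome 4 and 12.7% on chromosome 10, and the first part differed from it by -13.5 points (-15.7 to -11.3) and -2.25 points (-4.74 to 0.305).

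**Figure D2:**
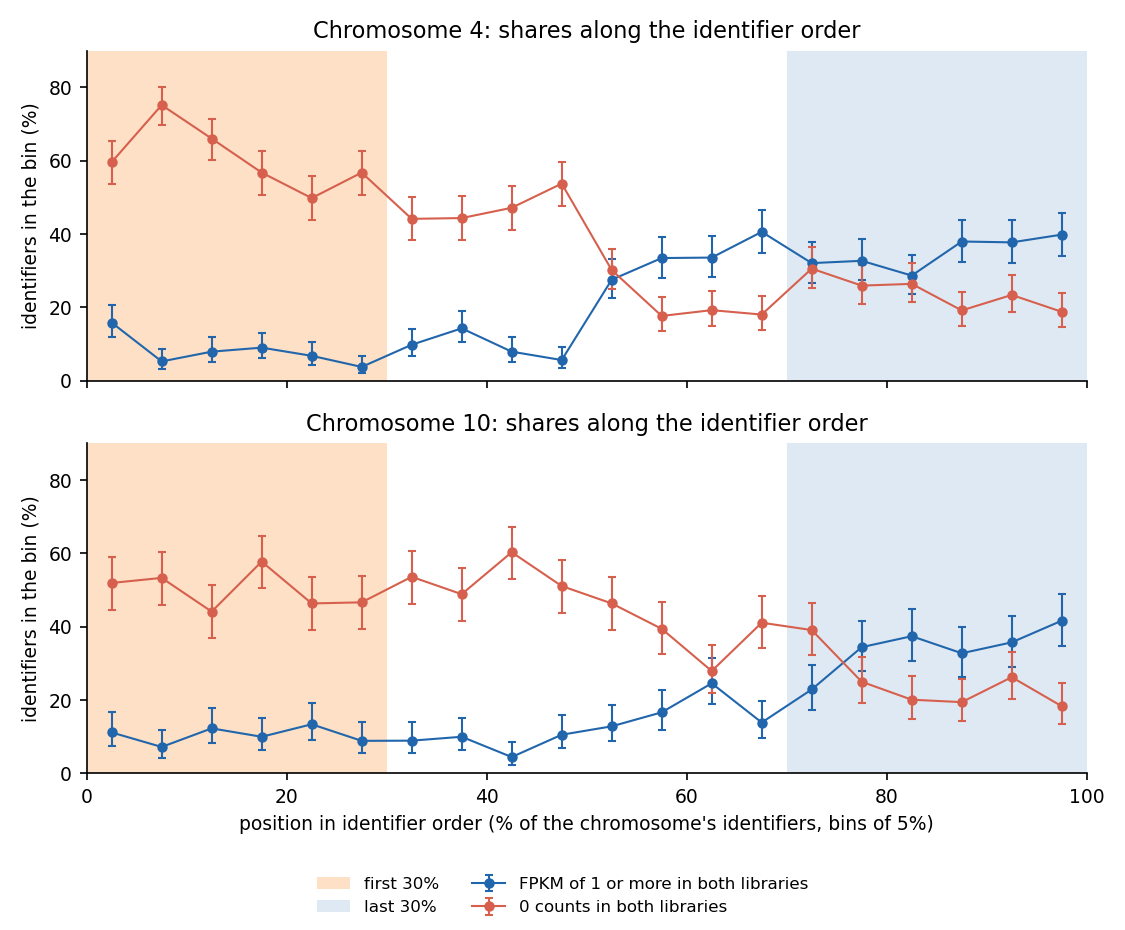
Share of identifiers expressed (blue) and undetected (orange) in 20 bins of 5% along the identifier order of chromosomes 4 and 10, in percent of the identifiers of each bin, with 95% Wilson intervals. Shading marks the first and the last 30%. On chromosome 4 the expressed share goes from 5.64% to 27.5% between the bins on either side of the midpoint. On chromosome 10 it rises unevenly over several later bins, with a drop to 13.9% in bin 14.

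The undetected share of chromosome 4 was highest early. It ran from 49.8% to 75.2% over the first 6 bins and reached 75.2% in the second bin. The next 4 bins had 44.2% to 53.8%, and the last 6 had 18.8% to 30.6%. On chromosome 10 it ran from 44.1% to 57.8% in the first 6 bins and from 48.9% to 60.3% in the next 4. It was 18.3% to 39.1% in the last 6.

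The same division of the other 10 chromosomes gave the setting. Their first parts had expressed shares from 11.0% to 40.8% and their last parts from 12.0% to 37.7%. Chromosome 4 had the lowest share of the 12 first parts and chromosome 10 the next. The first minus last difference over the other 10 ran from -21.6 to 8.75 points, with a median of -6.47. Its lowest value belonged to chromosome 9, whose first part resembled these regions, with 11.0% expressed and 52.0% undetected. Chromosome 10 minus chromosome 9 was -0.468 points for the expressed share (-3.07 to 2.14) and -1.95 points for the undetected share (-6.13 to 2.25), and both intervals include 0. Chromosome 4 minus chromosome 9 was -2.86 points (-5.20 to -0.626) and 8.71 points (4.91 to 12.5). Without chromosome 9 the first parts of the other chromosomes had expressed shares of 20.7% or more. Low shares were not particular to first parts, however. The middle parts of the other 10 chromosomes had expressed shares from 11.1% on chromosome 6 to 21.7% on chromosome 1. On chromosome 6 the middle part had 48.2% undetected, and on chromosome 12 it had 11.3% expressed and 47.9% undetected. The last parts of chromosomes 4 and 10 lay within the range of the other chromosomes.

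**Figure D3:**
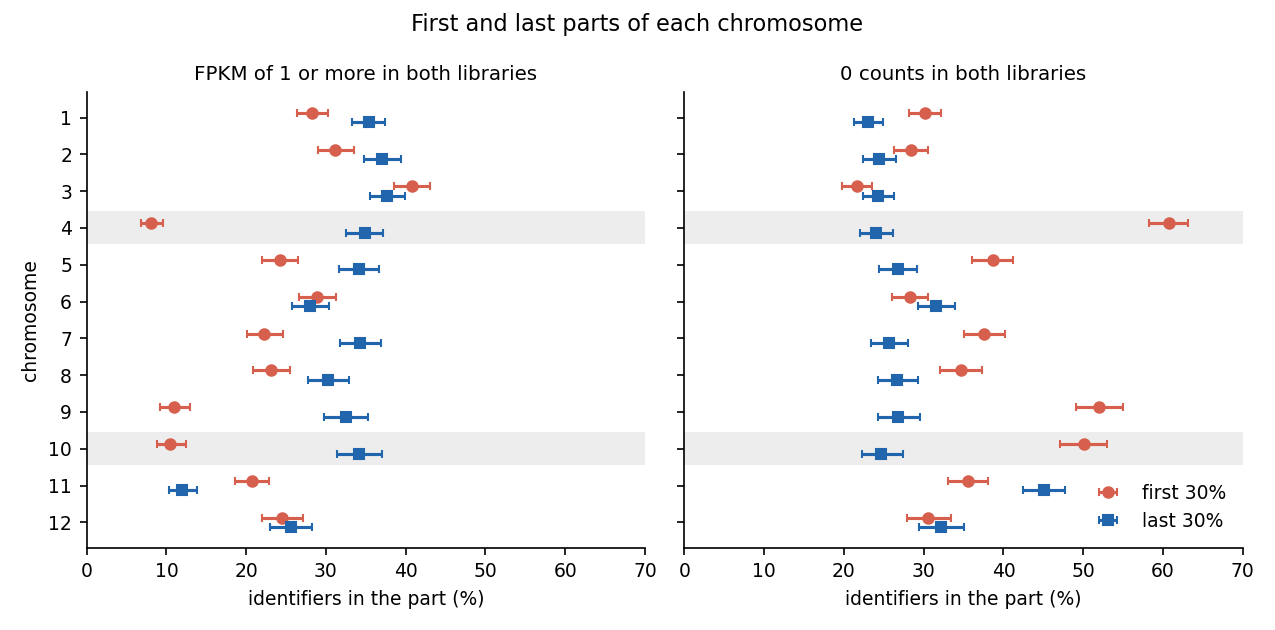
Share of identifiers expressed (left) and undetected (right) in the first 30% (orange circles) and last 30% (blue squares) of each of the 12 chromosomes, in percent of the identifiers in the part, with 95% Wilson intervals. Grey bands mark chromosomes 4 and 10, whose first parts have 8.10% and 10.5% expressed while their last parts have 34.8% and 34.2%.

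The models also differed in length from those of the last parts. The median length was 1107 bp for members of chromosome 4 (quartiles 591 and 2337) and 1626 bp in its last part (705 and 2848). On chromosome 10 it was 1266 bp (594 and 2444) and 1567 bp (723 and 2547). Lengths that were a multiple of 3, as a coding sequence without untranslated regions has, made up 87.6% of the members of chromosome 4 and 66.0% of its last part. On chromosome 10 they made up 81.3% and 65.8%. They were 74.3% of all identifiers with a chromosome number. Such models were not particular to these regions, since the first part of chromosome 9 had 87.1% of them and a median length of 993 bp, and the middle of chromosome 10 had 82.5% and 1101 bp. Models with untranslated regions can also have such a length, so the class mixes both kinds. Fewer reads can be assigned to a model without untranslated regions, and the part this has in the counts was not tested.

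The direction of the length difference depended on the state of the models. Undetected members were longer than undetected identifiers of the last part, with medians of 864 bp against 680 bp on chromosome 4 and 885 bp against 636 bp on chromosome 10. Expressed members had medians of 1948 bp against 2259 bp, and 2040 bp against 2135 bp. Of the undetected members 93.1% and 91.7% had a length that was a multiple of 3, and of the expressed members 56.6% and 47.8%.

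Within each class of length the expressed share was lower in the first part. Among models over 2000 bp it was 13.3% of 475 members against 46.3% of 655 identifiers on chromosome 4, and 16.0% of 363 against 47.8% of 404 on chromosome 10. Among models above 1000 and up to 2000 bp it was 9.72% against 38.6%, and 13.2% against 36.4%. Among those above 500 and up to 1000 bp it was 2.94% against 23.4%, and 4.46% against 21.5%. Among those of 500 bp or less it was 5.02% against 13.8%, and 4.44% against 13.5%, with Newcombe intervals of the difference from -13.8 to -4.15 points and from -15.1 to -3.58 points. The difference was smallest in this class, where both parts had few expressed models.

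**Figure D4:**
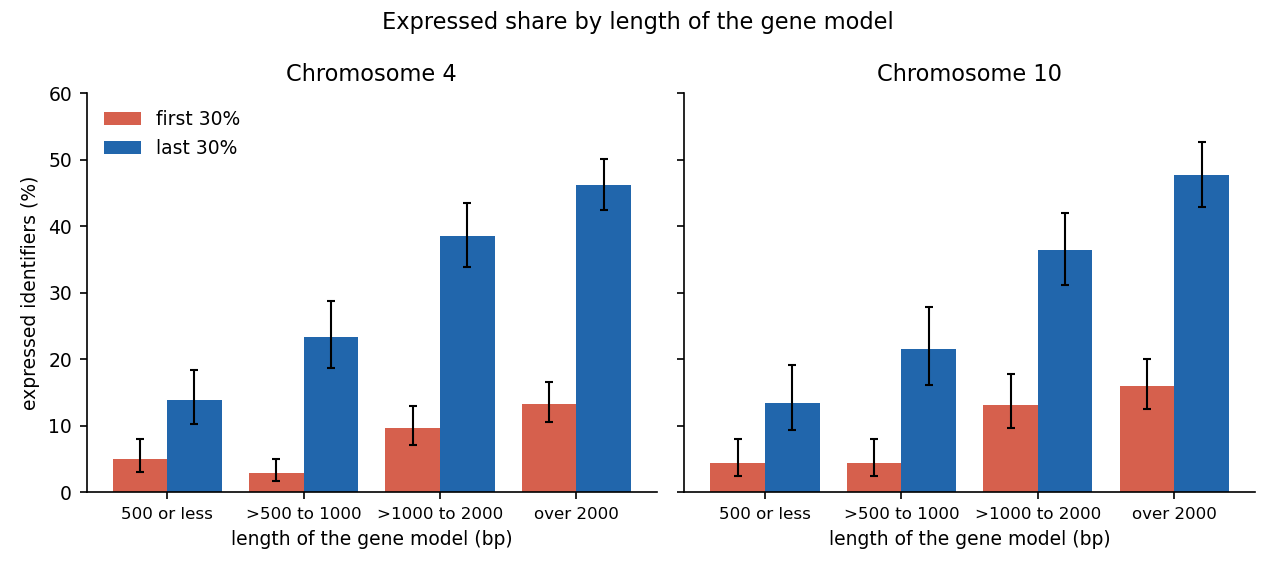
Expressed share in percent of the identifiers of each length class, for the first 30% (orange) and last 30% (blue) of chromosomes 4 and 10, with 95% Wilson intervals. The first part is lower in all 4 classes on both chromosomes, from 5.02% against 13.8% in the shortest class of chromosome 4 to 13.3% against 46.3% in its longest.

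The difference was also present within each class of divisibility. Among lengths that were not a multiple of 3, 56 of 198 members (28.3%) were expressed on chromosome 4 against 263 of 542 (48.5%) in its last part, a difference of -20.2 points (-27.4 to -12.4). On chromosome 10 these were 59 of 201 (29.4%) against 182 of 368 (49.5%), a difference of -20.1 points (-27.9 to -11.7). Among lengths that were a multiple of 3 the shares were 5.23% against 27.8%, and 6.16% against 26.2%. Weighted to the same mix of length class and divisibility, the first minus last difference was -21.4 points on chromosome 4 and -19.9 on chromosome 10. For undetected identifiers the weighted differences were 29.8 and 21.0 points. The undetected difference on chromosome 10 was smaller in some classes. It was 10.7 points (4.32 to 17.6) among lengths that were not a multiple of 3 and 9.87 points (0.590 to 19.0) among models of 500 bp or less, against 25.3 over all its members. On chromosome 4 these values were 25.9 points (19.2 to 33.0) and 23.8 points (16.3 to 31.1).

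The libraries were last compared with each other member by member, by an exact binomial test (two-sided) of their counts, with Benjamini-Hochberg adjustment over the 19770 identifiers that had at least 10 counts in sum. Only 423 of the 2670 members (15.8%) reached that minimum, against 1324 of 2670 identifiers (49.6%) in the last parts. Of these 423, 1 was called different (0.236%), where 0.678% of all tested identifiers were called. The last parts had 9 called of 1324 (0.680%). With 1 call the member share and the background cannot be ranked. The test has 1 library on each side, so its p covers counting error only and not the spread between plants or preparations. The member called was MH04g0188100, described above, with library 1 at 0.920-fold of library 2 (95% Clopper-Pearson based interval 0.886 to 0.955), a log2 ratio of -0.12. Its adjusted p was 0.00296 by the exact binomial test and lay between 1.53e-05 and 0.0727 over 4 alternatives, so the call depends on the scaling. The lowest value came with DESeq2 size factors, which were 1 in both libraries and so left the counts unscaled. On chromosome 10, none of 192 tested members was called by the exact binomial test, here or under the 4 alternatives, and 11 had an unadjusted p under 0.05. The median absolute log2 ratio of tested members was 0.20, against 0.14 in the last parts, where the median count was also higher (197 against 108). Across the expressed members, log2(FPKM + 1) had a Spearman rho between libraries of 0.970 on chromosome 4 (129 members) and 0.977 on chromosome 10 (113 members). Over all members rho was 0.719 and 0.740, against 0.930 and 0.938 over the last parts. Most members have no or few counts, and the expressed members were those above the floor in both libraries. These coefficients are across genes of shared libraries and describe agreement only.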

How the data were processed

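RNA was measured in 2 libraries of a single group. Per the labels' protocols, 2 µg of RNA went through ribosomal depletion with a kit that marks strand. Per the submitters' processing notes, Trimmomatic, HISAT2 and HTSeq were used. Neither their versions nor the build, gene models and strand option behind the counts are given in the sources used here. Deposited gene count values are raw counts per gene, and the authors' FPKM, per the file headers, equalled CPM per kb to within 5e-06. Their upper-quartile column, a length-scaled signal the authors computed per the file headers, was not used. Counting summary lines were kept out of totals.

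Expressed meant an FPKM of at least 1 in each library. Named identifiers were the 5 members per chromosome with the highest mean FPKM and 10 or more counts in each library, those at the 30% limit, the ends of the longest undetected runs, the highest of each last part, and members differing between libraries. An adjoining pair of high members and the ends of the longest stretches without an expressed member were named after their values were seen. The member rule reads identifier order only, but it, the lists and the tests were chosen with earlier results of these data known. The library comparison used edgeR's TMM factors, and DESeq2 size factors served as an alternative. Those size factors were 1 in both libraries, so that alternative left the counts unscaled. The library comparison was tested on simulated data. Intervals and limits cover counting error only. Other alternatives changed the floor, the part size, the models and the libraries used. Python 3.11.15 was used with scipy 1.17.1, statsmodels 0.14.6, pandas 2.3.3 and numpy 2.4.6, and R 4.3.3 with DESeq2 1.42.0 and edgeR 4.0.16. No sequence is shown, since no sequence table for these identifiers was used here.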

Additional observations from a re-analysis of the deposited data

Results flagged for a closer look

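Fragments with more than 1 alignment lie outside the gene counts of both libraries. Entries with more than 1 alignment made up 27.7% of the sum of gene counts and counting summary lines in library 1 and 25.8% in library 2. The files do not place such fragments on chromosomes, so how many came from the first parts of chromosomes 4 and 10 was not tested. With 2 libraries in a single group, neither was judged to stand apart.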

How the results depend on the processing

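No paired analysis was possible because both libraries belong to 1 group. All 4 share differences kept their sign under all alternatives tried, and 22 of 58 alternative values of the main results stayed within the interval, spread or limit set for them. The expressed share difference on chromosomes 4 and 10 was -30.9 and -27.1 points at a floor of 0.5 FPKM, -13.2 and -12.9 at 5 FPKM, and -33.5 and -29.2 at 10 counts. With FPKM rescaled to MH counts it was -31.4 and -27.1. The expressed shares were then 10.2% in the first and 41.6% in the last part of chromosome 4, and 13.9% and 41.0% on chromosome 10. With lengths a multiple of 3 the difference was -22.6 and -20.1, and with other lengths -20.2 and -20.1. Standardised to length class and divisibility it was -21.4 and -19.9. With 40% parts it was -20.2 on chromosome 10. A single library gave -27.4 on chromosome 4 and -24.4 to -23.8 on chromosome 10. The undetected share difference was 42.5 and 30.8 points with 20% parts, 25.9 and 10.7 with lengths not a multiple of 3, and 29.8 and 21.0 standardised. It was 32.2 on chromosome 4 with lengths a multiple of 3 and 31.3 on chromosome 10 for under 10 counts in sum. A single library gave 37.9 to 38.0 and 27.5 to 28.2. The smaller value at 5 FPKM goes with fewer expressed identifiers in both parts, and the cause of the 10.7 was not tested.

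The median length difference of -519 bp on chromosome 4 and -301 bp on chromosome 10 was -566.5 and -207.5 with 20% parts, -584.5 and -242 with 40% parts, and -311 and -95 among expressed identifiers. It turned to 184 and 249 among undetected identifiers. The cause was not tested. The top 10 members held 46.9% and 45.3% of counts in the first 20%, and 41.0% and 36.3% in the first 40%. A single library gave 45.3% to 45.7% on chromosome 4 and 38.7% to 39.0% on chromosome 10. The single member called different between libraries was not called when libraries were scaled by total gene counts (0 members by the exact binomial test, 40 with an unadjusted p under 0.05), and 1 member was called under the other 3 alternatives. That comparison needs both libraries, so leaving out either gives no value. Without the count filter 1164 members were tested in place of 423.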
